A study of Homo sapiens with 8 samples.

Results

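HEK293T cells carrying a lentiviral shRNA against TET1 were compared with HEK293T cells carrying a control shRNA. The comparison uses 3 of the 8 arrays of the study, chosen by their labels: shControl (control shRNA, 1 clone), shTET1#1 and shTET1#2 (a different TET1 shRNA each, 1 clone each). HEK293T derives from human embryonic kidney and expresses SV40 large T antigen, a background that all groups share. The vector control array is shown beside the single control. It holds cells transfected with an empty plasmid and sorted by fluorescence 3 days later, and so differs from the clones in more than the shRNA. The other 4 arrays, with wild-type or mutant TET1 plasmids (TET1-CD, mTET1-CD, TET1-FL, mTET1-FL), had the same sorting and were used for the spread and for side-by-side values. Each array received 100 ng of total RNA.

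The TET1 enzyme oxidises methylated cytosine in DNA, a first step towards removal of the mark. It is found mostly at promoters rich in CpG, and it also occurs with repressor complexes such as Polycomb. A short hairpin RNA lowers a transcript by guiding its cleavage, and a clone grown from 1 cell also carries whatever set that cell apart from its neighbours. With 1 control clone, the effect of the shRNA and the history of that clone cannot be told apart. RNA from bulk culture also does not tell fewer cells of a kind from less RNA per cell.

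Signals are log2 values, so a difference of 1 is 2-fold. The medians of the 8 arrays lay between 5.47 and 5.55, and a signal near or below that level may be limited by background. Of 53617 transcript clusters, which are the array's gene-level probe sets, 28946 had a signal above the array's own median on at least 2 arrays and were tested. The 5 named HEK293T identity markers (PAX2, LHX1, KRT8, KRT18, VIM) were above the median on all 3 shRNA arrays. Of 15 named markers of other cell types, APOA1, TTR and PMEL were also above it on all 3, and the 15 ranged from 2.76 to 6.65.

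TET1, the targeted gene, was read by 2 transcript clusters. The brighter, 16705381, stood at 9.29 in the control clone, 8.62 with shTET1#1 and 9.14 in the clone labelled shTET1#2, and at 9.51 in the vector array. The dimmer, 16715048, stood at 5.71, 5.27 and 6.20 in the same order, and at 5.86 with the vector. Signal was thus lower in shTET1#1 in both clusters, whereas in the other clone it was 1.11-fold lower in the first and 1.40-fold higher in the second. The fitted differences were -0.41 ± 0.27 (SE) and 0.024 ± 0.40, neither past the threshold (limma with Benjamini-Hochberg adjustment, adjusted p = 0.782 and 0.997). For this reason the second clone is called the array labelled shTET1#2 throughout. Directions drawn from it rest on a clone in which lower TET1 RNA was not detected by both clusters. The dimmer cluster stood near the array medians in the control clone and in shTET1#1, so its differences may be limited by background.

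Across all 28946 transcript clusters, 0 (0%) passed an adjusted p of 0.05 in limma for TET1 shRNA minus control shRNA. An unadjusted p under 0.05 was reached by 2294 (7.93%), and the lowest adjusted p was 0.16. In simulated data the fit recovered 0.00% of 2-fold changes, so the lack of calls does not speak to changes of that size. It recovered 59.1% of simulated log2 differences of 2 and 93.6% of those of 4, with 4.6 false calls on average. The simulated spreads were drawn from the fitted variance prior. As no cluster passed, the differences below are described by size and by how the clones compare. At least 2-fold higher in both clones were 125 clusters (0.432%), and at least 2-fold lower in both were 111 (0.383%). Which side was larger depended on the setting, with 204 higher and 311 lower without a filter, 197 and 300 against the vector, 52 and 77 against both controls pooled, and 115 and 128 with arrays centred on their medians. Most of these had no gene name, 97 of the higher and 90 of the lower. The clones had unequal counts when taken alone, since shTET1#1 had 315 (1.09%) higher and 262 (0.905%) lower, and the array labelled shTET1#2 had 324 (1.12%) higher and 626 (2.16%) lower. Both clones are measured against the same control array, so their shared direction includes whatever is peculiar to that array.

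**Figure D1:**
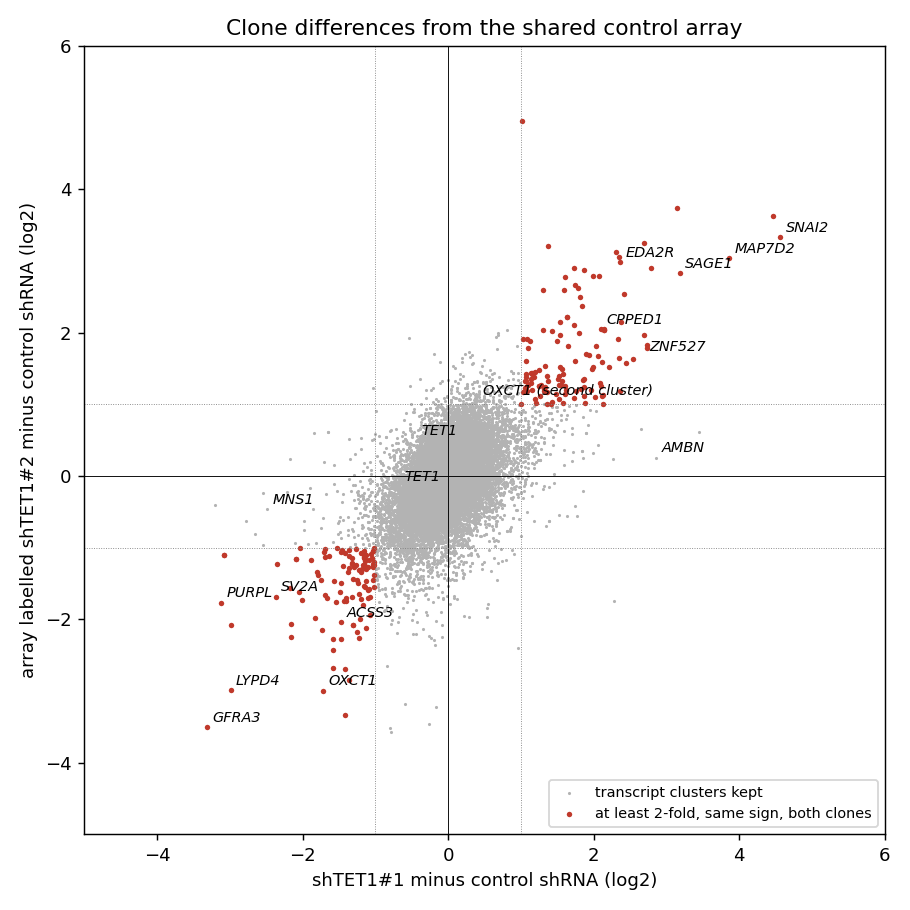
Difference from the control shRNA array in shTET1#1 (x axis) against that in the array labelled shTET1#2 (y axis), log2, for the 28946 transcript clusters kept. Red points are at least 2-fold from the control with the same sign in both clones (dotted lines mark 1 and -1), with SNAI2 and MAP7D2 at the upper right and GFRA3 and LYPD4 at the lower left. OXCT1 appears with both its clusters, which lie on opposite sides.

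SNAI2, MAP7D2, SAGE1 and LINC00665 stood furthest above the control clone. SNAI2 encodes Slug, a zinc finger repressor that binds E-box sequences and is best known in epithelial to mesenchymal transition. It stood at 5.82 in the control clone, 10.38 with shTET1#1 and 9.15 in the array labelled shTET1#2, which is 23.7- and 10.1-fold higher. Its fitted difference was 3.95 ± 0.50 (limma adjusted p = 0.389). The vector array stood at 10.03 and the 4 TET1 plasmid arrays at 9.83 to 9.93. The control clone was therefore the low array among all 8. With the vector array as the control the fitted difference was -0.27, with shTET1#1 above the vector and the array labelled shTET1#2 below it.

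MAP7D2, a microtubule-associated protein, stood at 5.44 in the control clone, 9.30 with shTET1#1 and 8.48 in the array labelled shTET1#2. The vector array stood at 8.37, so again the control clone was the low array, and both clones were above the vector by a smaller margin than above the control. SAGE1, a cancer-testis antigen gene whose expression is normally restricted to the germline, stood at 3.70 in the control clone, 6.88 with shTET1#1 and 6.53 in the array labelled shTET1#2. Its fitted difference was 3.01 ± 0.20 (limma adjusted p = 0.16), with 6.01 in the vector array. The control value lay well below the array medians, so its fold may be understated.

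LINC00665, a long noncoding RNA, stood at 4.71 in the control clone, 7.49 with shTET1#1 and 7.61 in the array labelled shTET1#2, against 7.21 with the vector. A second cluster for it gave 5.62, 6.80 and 7.01 in the same order, which is the same direction at a smaller size. CPPED1, a serine/threonine phosphatase, stood at 5.08, 7.19 and 7.13, with a fitted difference of 2.08 ± 0.15 (limma adjusted p = 0.16). The clones differed by 0.06 there, and both were above the vector at 6.43. EDA2R, a TNF receptor family member that binds ectodysplasin A2 and is a known p53 target, stood at 4.64, 7.00 and 7.62, with 6.54 in the vector array. The array labelled shTET1#2 was the highest of these 4 arrays.

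In the rest of the 15 highest the control clone was again the lowest of the 8 arrays. LOC100507412 stood at 6.45 in the control clone, 8.51 with shTET1#1, 9.24 in the array labelled shTET1#2 and 9.15 in the vector. STC1, which encodes the secreted glycoprotein stanniocalcin, stood at 3.93, 6.13, 5.45 and 7.55. EYA1, a developmental co-activator and phosphatase of kidney and ear formation, stood at 6.31, 8.19, 7.66 and 8.34. In these 3 the vector array was above at least 1 of the clones, and in STC1 and EYA1 above both. ZNF527, ZNF681, ZNF83, ZNF345, ZNF470 and ZNF582-DT are described with the zinc finger genes below.

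Over the 15 genes the control clone stood below its array's median in 12 and below all 5 vector and plasmid arrays in 15. Both clones stood above all of those 5 arrays in 4: MAP7D2, SAGE1, LINC00665 and CPPED1. Vector minus control ranged from 1.15 to 4.21 (median 2.06) over the 15. These genes were chosen through the control's value, so its low place is a description and was not tested.

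The lower genes had a different order of arrays. GFRA3 is the receptor for the neurotrophic factor artemin and signals with RET. It stood at 8.69 in the control clone, 5.37 with shTET1#1 and 5.18 in the array labelled shTET1#2, which is 9.98- and 11.4-fold lower. Both clones were below their array medians, so these folds may be understated. The fitted difference was -3.41 ± 0.22 (limma adjusted p = 0.16). The vector array, at 6.78, and the plasmid arrays, at 6.77 to 7.47, lay between the control and the clones. LYPD4, a LY6/PLAUR domain protein gene, stood at 7.88, 4.89 and 4.89 with a fitted difference of -2.99 ± 0.15 (limma adjusted p = 0.16). The vector array stood at 6.03, and both clones were below their array medians.

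PURPL, a long noncoding RNA induced by p53, stood at 7.90 in the control clone, 4.79 with shTET1#1 and 6.13 in the array labelled shTET1#2. The vector array stood at 8.26 and the plasmid arrays at 8.74 to 9.11, so both clones were low against every other array. The clones themselves were 1.34 apart. ACSS3, a mitochondrial acyl-CoA synthetase, stood at 6.68 in the control clone, 5.21 with shTET1#1 and 4.64 in the array labelled shTET1#2. The vector array stood at 6.67, so control and vector were nearly equal and both clones lay at least 2-fold below each. Both clones were below their array medians here too.

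OXCT1, the enzyme that starts the use of ketone bodies, was read by 2 clusters that did not agree in direction. The brighter stood at 7.93 in the control clone, 6.21 with shTET1#1 and 4.93 in the array labelled shTET1#2. The dimmer stood at 5.12, 5.53 and 6.19, which is higher in both clones by 0.40 and 1.06. The array labelled shTET1#2 was the most extreme in each. The direction of OXCT1 is therefore given for the brighter cluster and is uncertain for the gene.

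SV2A, a synaptic vesicle protein, stood at 8.65 in the control clone, 6.28 with shTET1#1, 6.96 in the array labelled shTET1#2 and 7.46 in the vector. FENDRR, a long noncoding RNA of mesoderm development, stood at 7.20, 5.53, 5.5 and 6.18. COLEC12, a scavenger receptor of the collectin family, stood at 8.87, 7.56, 7.18 and 8.18. In each the vector array fell between control and clones. NAPRT, which makes NAD from nicotinic acid, stood at 8.15, 6.79, 6.87 and 7.79. ROR2, a receptor for WNT5A, stood at 6.79, 5.48, 5.57 and 6.15. In both of these genes the clones were within 0.10 of each other and below the vector.

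CPNE7, NPTX1, DPP4, IFITM2 and TFPT completed the 15, with fitted differences of -1.24, -1.15, -1.23, -1.30 and -1.21. NPTX1 is a neuronal pentraxin and DPP4 a cell-surface peptidase. IFITM2 has near-identical neighbours in its family, so its probes may read more than 1 gene. Both clones were below all 5 vector and plasmid arrays in 15 of the 15 lower genes. The control clone was above all 5 in 12, the exceptions being ACSS3, PURPL and TFPT. Vector minus control ranged from -1.91 to 0.36 (median -0.70). These genes were chosen through low clone values against the control's value, so the places of the clones and the control are a description and were not tested.

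**Figure D2:**
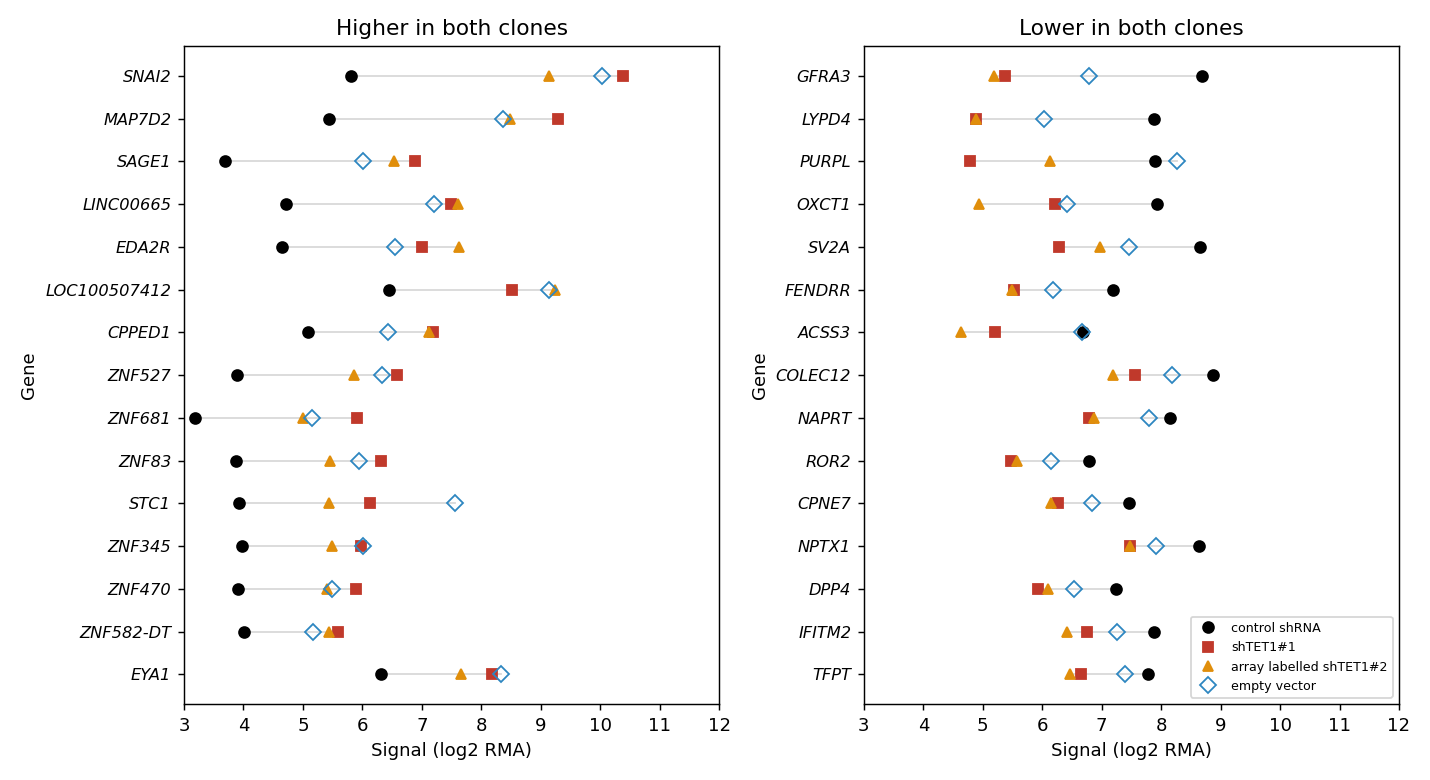
Signal (log2 RMA, x axis) of the 15 named genes with the largest agreed excess over the control clone (left) and the 15 with the largest agreed deficit (right), 1 point per array and no error bars because each point is 1 array. On the left the control clone (black) is the lowest point in each row. The vector (open blue) lies near the clones in some rows and apart in others, such as STC1 (7.55 against 6.13 and 5.45). On the right the clones are the lowest points in each row.

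A stricter reading, chosen after the values were seen, asks both clones to be at least 2-fold from the control and from the vector. It left 9 higher clusters (0.0311%) and 27 lower (0.0933%). None of the 9 had a gene name, and SNAI2, MAP7D2 and SAGE1 were not among them. The named lower genes were GFRA3, LYPD4, PURPL and ACSS3.

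When each named gene was represented by its brightest cluster and unnamed clusters were left out, 10797 symbols were tested. Here 5 genes passed: LYPD4 (limma adjusted p = 0.0139), and GFRA3, CPPED1, SAGE1 and LINC00665 (limma adjusted p = 0.0186). Over the other alternatives their adjusted p ran from 0.0712 to 0.997, none of them past the threshold. In these 5 genes the clones differed by at most 0.36, and the spread in this fit comes in part from the difference between the clones.

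Zinc finger genes of chromosome 19 recurred among the higher genes. These genes lie in clusters of related copies, many encode KRAB repressors of transposable elements, and some probes may read more than 1 copy. Of the 27 symbols at least 2-fold higher in both clones (0.25% of 10797), 14 were on chromosome 19 and 6 on X, by the RefSeq gene table of GRCh38.p14. The 19 lower symbols (0.176%) lay on 12 chromosomes, with 3 on chromosome 5. Of all 10797 symbols, 7.76% were on chromosome 19, 3.26% on X and 4.32% on chromosome 5. ZNF527 stood at 3.89 in the control clone, 6.58 with shTET1#1, 5.86 in the array labelled shTET1#2 and 6.33 in the vector. ZNF681 stood at 3.18, 5.91, 5.01 and 5.15 in the same order. In both genes the control value was far below its array median.

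ZNF83 stood at 3.88 in the control clone, 6.32 with shTET1#1, 5.45 in the array labelled shTET1#2 and 5.94 in the vector. ZNF345 stood at 3.98, 5.97, 5.49 and 6.02, and ZNF470 at 3.92, 5.90, 5.41 and 5.48. Here too the control clone was the low array, and shTET1#1 was above the array labelled shTET1#2. ZNF582-DT, a divergent noncoding transcript, stood at 4.01, 5.59, 5.43 and 5.17. Its second cluster stood at 5.32, 5.48 and 5.99 in the 3 shRNA arrays, a smaller difference of the same sign.

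Of 177 zinc finger genes kept on chromosome 19, 12 (6.78%) were at least 2-fold higher in both clones and 0 were lower. Higher at any size in both were 96 of 177 (54.2%), against 2917 of 10797 named symbols (27%). Lower in both were 22 of 177, against 3567 of 10797 (33%). The median difference was 0.36 with shTET1#1 and 0.063 in the array labelled shTET1#2, and the vector minus control median was 0.26. Against the vector the medians were 0.12 and -0.19, so the sign for the array labelled shTET1#2 depended on the control. At least 2-fold above the control were 34 of the 177 in shTET1#1, 12 in the array labelled shTET1#2 and 17 in the vector. Over all named symbols the shares past 2-fold were 0.722% for shTET1#1 and 0.389% for the array labelled shTET1#2. No such share was worked out for the vector. The vector was at least 2-fold above the control in 1 of 243 zinc finger genes of other chromosomes and in 7 of 661 other genes of chromosome 19. The count of 12 became 1 with the vector in place of the control, 0 with both controls pooled and 2 with a filter on the mean of the 3 shRNA arrays. Zinc finger genes of other chromosomes (243) had medians of 0.033 and -0.094, with 0 at least 2-fold higher in both, and the 661 other genes of chromosome 19 had -0.004 and 0.007.

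**Figure D3:**
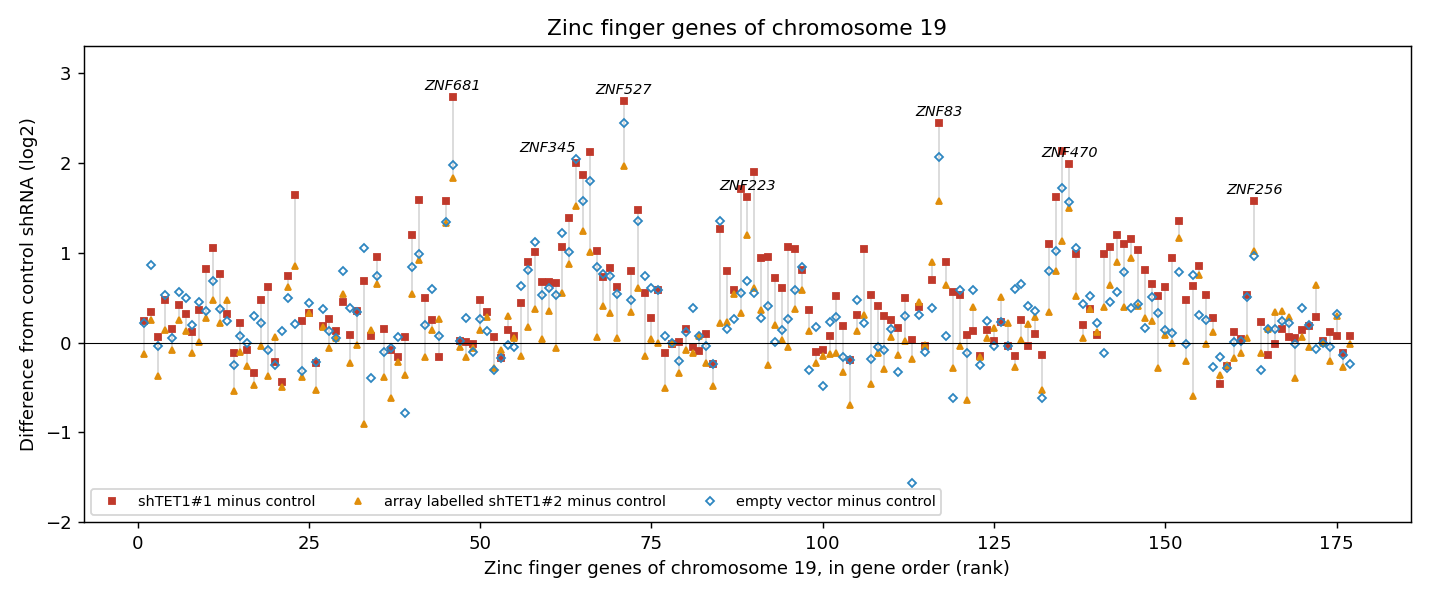
Difference from the control clone (log2, y axis) for 177 zinc finger genes of chromosome 19 in gene order (x axis, rank), in shTET1#1, the array labelled shTET1#2 and the vector array. Runs of neighbouring genes stand above 0 in all 3 arrays, and no gene is at least 2-fold below the control in both clones.

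Neighbouring genes were higher together, in stretches picked out after the values were seen. From ZNF790 to ZNF570, 11 of 11 genes were higher in both clones, with medians of 1.39 and 0.61 and a vector median of 1.00. From ZNF582 to ZNF71 it was 6 of 6, with medians of 1.60 and 0.96 and a vector median of 1.10. From ZNF283 to ZNF112 it was 11 of 13, with medians of 0.95 and 0.33 and a vector median of 0.41. The clones share the sign in these stretches, and shTET1#1 had the larger median in each. The vector, which carries no shRNA, had a median above that of the array labelled shTET1#2 in all 3.

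On chromosome X, the stretch from MAP3K15 to APOO had 11 of 15 genes higher in both clones, with medians of 1.11 and 0.46 and a vector median of 0.55. It holds MAP7D2 and the neighbours ACOT9, SAT1 and APOO. ACOT9 is an acyl-CoA thioesterase and stood at 7.67 in the control clone, 9.03 with shTET1#1 and 8.67 in the array labelled shTET1#2. SAT1, which acetylates spermidine and spermine, stood at 5.90, 8.26 and 7.08, with 8.80 in the vector array. PTCHD1 in the same stretch ran the other way, at 6.77, 5.19 and 5.84. Among the higher symbols there were 6 adjacent pairs of measured genes, and among the lower symbols 0. No expected number of such pairs was worked out, so these counts have no baseline.

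TET1 acts at CpG-rich promoters, so the 250 bases before the start site of 5 leading genes with an entry in the RefSeq promoter table of GRCh38.p14 are shown. They run 5′ to 3′ on the gene's strand, with CG dinucleotides in capitals. GFRA3 and LYPD4 are the lower genes with the largest agreed differences, SAGE1 and MAP7D2 lead the higher genes of chromosome X, and ZNF527 leads the zinc finger genes.
GFRA3, chr5:138274622-138274871, minus strand: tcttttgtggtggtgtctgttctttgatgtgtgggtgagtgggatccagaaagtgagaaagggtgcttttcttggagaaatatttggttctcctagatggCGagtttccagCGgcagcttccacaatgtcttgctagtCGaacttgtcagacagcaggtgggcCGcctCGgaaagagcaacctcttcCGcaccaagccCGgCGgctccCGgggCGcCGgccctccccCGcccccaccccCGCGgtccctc
LYPD4, chr19:41844684-41844933, minus strand: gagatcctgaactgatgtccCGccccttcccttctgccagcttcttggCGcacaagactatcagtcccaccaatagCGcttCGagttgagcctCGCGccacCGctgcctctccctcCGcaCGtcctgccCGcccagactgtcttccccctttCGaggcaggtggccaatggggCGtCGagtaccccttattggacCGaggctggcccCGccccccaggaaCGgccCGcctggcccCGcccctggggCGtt
SAGE1, chrX:135893466-135893715, plus strand: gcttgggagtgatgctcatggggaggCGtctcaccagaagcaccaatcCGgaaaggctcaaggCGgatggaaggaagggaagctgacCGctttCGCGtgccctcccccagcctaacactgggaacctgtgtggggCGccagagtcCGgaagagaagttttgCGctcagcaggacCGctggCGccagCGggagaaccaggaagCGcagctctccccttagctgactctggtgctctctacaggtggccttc
MAP7D2, chrX:20116908-20117157, minus strand: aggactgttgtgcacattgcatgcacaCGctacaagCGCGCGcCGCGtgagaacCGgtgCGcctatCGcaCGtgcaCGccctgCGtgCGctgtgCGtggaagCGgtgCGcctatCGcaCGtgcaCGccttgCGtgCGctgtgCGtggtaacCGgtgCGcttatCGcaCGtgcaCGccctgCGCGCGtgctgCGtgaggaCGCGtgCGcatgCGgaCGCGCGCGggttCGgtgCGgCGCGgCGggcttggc
ZNF527, chr19:37370849-37371098, plus strand: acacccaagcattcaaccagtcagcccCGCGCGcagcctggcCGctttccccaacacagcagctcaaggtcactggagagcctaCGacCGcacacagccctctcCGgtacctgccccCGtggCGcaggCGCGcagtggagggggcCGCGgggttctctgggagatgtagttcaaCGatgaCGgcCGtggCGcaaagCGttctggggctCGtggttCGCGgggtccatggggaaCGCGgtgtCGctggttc

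These windows held 14 CG dinucleotides for GFRA3, 19 for LYPD4, 13 for SAGE1, 44 for MAP7D2 and 24 for ZNF527. Over the 21 of 27 higher symbols with an entry the median was 18, over 13 of 19 lower symbols 19, and over 8288 of all 10797 symbols 20. An observed to expected CpG ratio of at least 0.6 was found in 61.9% of the higher, 84.6% of the lower and 76.8% of all promoters. The E-box CAGGTG, the sequence that Slug binds, was searched on both strands (CACCTG on the other), and it overlapped no other motif searched. It was in 4 higher promoters (19%), 4 lower promoters (30.8%), 20 of 161 promoters of chromosome 19 zinc finger genes (12.4%) and 1369 of all 8288 (16.5%). These are counts of letters in the window and say nothing of binding.

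In the gene lists, 0 members passed the limma threshold over all clusters, so each list is described by its counts and medians. Over all 10797 named symbols 27% were higher and 33% lower in both clones, so counts near those shares are not particular to a list. Among 19 genes of cytosine methylation and demethylation, 6 were higher and 8 lower in both clones, with medians of 0.00 with shTET1#1 and -0.073 in the array labelled shTET1#2. CXXC5, a CpG-binding zinc finger protein, stood at 7.85 in the control clone, 7.17 with shTET1#1 and 7.27 in the array labelled shTET1#2. UHRF1, which guides maintenance methylation, stood at 9.56, 9.15 and 9.13, and TDG, which excises oxidised cytosines, at 8.91, 8.65 and 8.51. The vector array was lower still in UHRF1 (8.65) and TDG (7.90). Polycomb and other TET1-associated repressor subunits had 4 of 24 higher and 9 lower, with medians of 0.02 and -0.10.

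Of 11 transcription factors of mesenchymal transition, 3 were higher and 4 lower in both clones, and SNAI2 was the member at least 2-fold higher. Among 6 mesenchymal genes 3 were higher and 3 lower. VIM, the intermediate filament vimentin, was read by 3 clusters, with differences of -0.55 and -0.59, -0.98 and -1.30, and -1.08 and -1.68 in the 2 clones. LOX, a collagen crosslinking enzyme, stood at 7.11, 6.66 and 6.81, TAGLN at 5.80, 5.5 and 5.54, and FN1 at 7.24, 7.46 and 7.46. Against the vector array, at 5.34 for TAGLN and 8.89 for FN1, both of these directions turned. Among 24 epithelial genes 4 were higher and 7 lower. EPCAM stood at 7.03, 6.25 and 6.32, KRT7 at 5.98, 5.19 and 5.52, DSC2 at 9.44, 9.23 and 8.62, and KRT19 at 5.44, 5.84 and 6.06. The epithelial genes named went both ways. SNAI2 was higher in both clones against the control clone. Against the vector the clones split, with differences of 0.35 with shTET1#1 and -0.88 in the array labelled shTET1#2. The brightest VIM cluster was lower in both clones against the control clone and the vector, with differences of -0.54 and -0.58 from the vector.

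Of 21 p53 targets, 13 were lower and 1 higher in both clones, with medians of -0.24 and -0.35. The higher one was EDA2R, and PURPL was the member at least 2-fold lower. HEK293T carries the large T antigen, which binds p53, in every group. HOX genes had 18 of 26 lower and 0 higher, with medians of -0.41 and -0.083, and the vector median was -0.26. HOXB6 stood at 8.60, 7.47 and 8.27, HOXB5 at 8.66, 7.45 and 8.59, HOXB8 at 7.75, 6.95 and 7.28, and HOXC9 at 9.0, 8.26 and 8.51. shTET1#1 was the lower clone in each of these 4. In the vector array HOXB6 stood at 7.74 and HOXB5 at 7.98, and with it as the control the fitted differences were 0.13 and 0.035.

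Among 48 genes often methylated in cancer, 21 were lower and 10 higher in both clones, against 33% and 27% of all named symbols. TFPI2, a protease inhibitor, stood at 6.86, 5.94 and 5.89, with 5.94 in the vector array. SFRP1, a secreted Wnt antagonist, stood at 7.11, 6.07 and 6.49, and TP73, a p53 relative, at 6.84, 6.09 and 5.95. In the vector array SFRP1 stood at 6.93 and TP73 at 6.61. Of 36 Wnt pathway genes 16 were lower and 6 higher. LGR5, a receptor for R-spondins, stood at 6.94, 6.23 and 5.89, and FZD7, a Wnt receptor, at 7.90, 7.15 and 6.92. RNF43, which removes Wnt receptors from the surface, stood at 6.11, 6.76 and 7.00. The vector array, at 6.18 for LGR5, 7.21 for FZD7 and 6.86 for RNF43, was nearer to both clones than to the control clone. Of 42 germline genes named on the array only 14 were kept, and of these 7 were higher and 1 lower in both clones. Their medians were 0.05 with shTET1#1 and 0.26 in the array labelled shTET1#2, with a vector median of -0.043. SAGE1 had the largest difference, and it was kept through arrays other than the control clone, where it stood at 3.70. The filter thus favours members that are high on some arrays, and the list was not tested as a set.

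Of 32 neuronal genes 14 were higher and 8 lower, with MAP7D2 at least 2-fold higher and SV2A and SYT11 at least 2-fold lower. SYT11, a synaptotagmin, stood at 7.54 in the control clone, 6.38 with shTET1#1 and 6.46 in the array labelled shTET1#2. In 18 ketone-body and acyl-CoA enzymes, 5 were higher and 7 lower, with ACSS3 and the brighter OXCT1 cluster at least 2-fold lower. Sterol synthesis genes had 8 of 28 higher and 9 lower, close to the 27% and 33% of all named symbols. SQLE stood at 8.16, 8.76 and 9.09, MSMO1 at 9.49, 10.03 and 10.12, IDI1 at 7.76, 8.28 and 8.09, and INSIG1 at 9.42, 9.87 and 9.87. In these 4 the vector array was also above the control, at 8.96, 10.27, 8.58 and 10.82.

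G1/S and DNA replication genes had 21 of 34 lower and 3 higher, with medians of -0.098 and -0.135 and a vector median of -0.21. MCM5 stood at 10.14, 9.66 and 9.68, MCM2 at 9.85, 9.54 and 9.33, and ASF1B at 10.11, 9.93 and 9.54, with the vector array at 9.44 in ASF1B. Ribosomal protein genes had 26 of 46 lower and 5 higher, with medians of -0.18 and -0.063. Interferon response genes had 2 of 23 higher and 7 lower, and genes of small RNA processing 1 of 13 higher and 7 lower. Over all 10797 named symbols the medians were 0.013 and -0.057, with 27% higher and 33% lower in both clones.

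**Figure D4:**
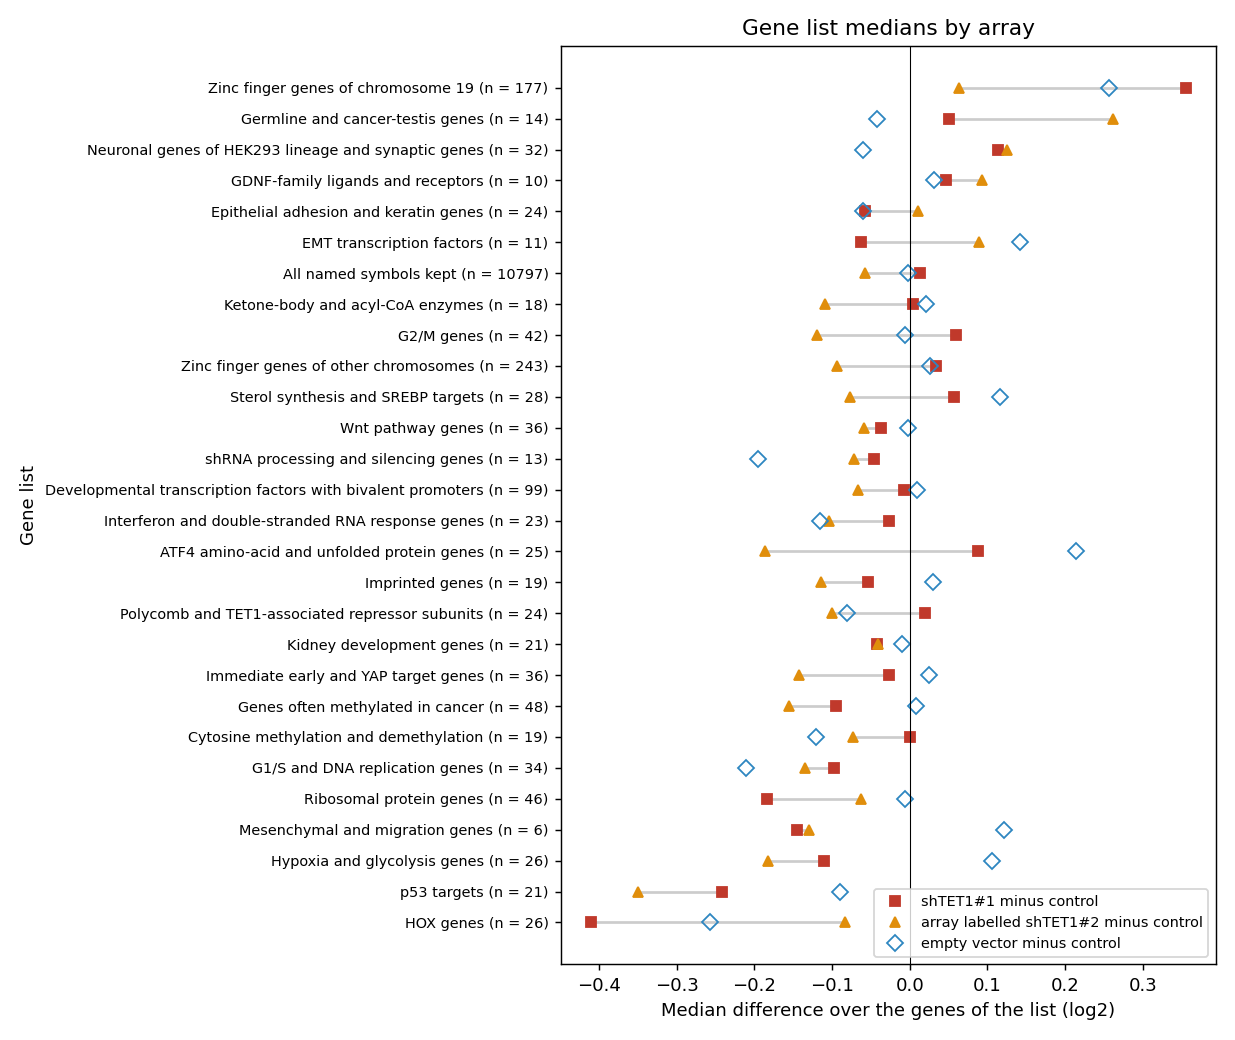
Median difference from the control clone (log2, x axis) over the genes of each list in shTET1#1, the array labelled shTET1#2 and the vector array, for lists with at least 5 genes kept, with their number. In shTET1#1 the HOX genes lie lowest (-0.41) and the zinc finger genes of chromosome 19 highest (0.36), whereas in the array labelled shTET1#2 the p53 targets lie lowest (-0.35) and the germline genes highest (0.26).

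The clones also differed from each other. Clusters at least 2-fold higher in shTET1#1 than in the array labelled shTET1#2 numbered 463 (1.6%) and those at least 2-fold lower 220 (0.76%). In limma 0 (0%) passed an adjusted p of 0.05 for this difference, while 5258 (18.2%) had an unadjusted p under 0.05 and the adjusted p reached 0.232 at the lowest. That fit takes its spread from the plasmid arrays and has 1 residual degree of freedom. In 2 clusters the clones were at least 2-fold from the control in opposite directions.

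AMBN, an enamel matrix protein gene, stood at 5.20 in the control clone, 8.06 with shTET1#1 and 5.46 in the array labelled shTET1#2, so shTET1#1 stood apart. ZNF230 stood at 4.29, 6.00 and 4.62, and 1 of 3 CYTOR clusters at 5.28, 6.43 and 4.99. The other CYTOR clusters differed less, by 0.16 and 0.39. ULBP1, a ligand of the NKG2D receptor, stood at 5.99, 6.08 and 4.54, TSSC2 at 8.32, 7.84 and 6.39, and ZNF14 at 5.56, 6.24 and 4.65. In ULBP1 and TSSC2 the array labelled shTET1#2 stood apart from the control.

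MNS1, a meiosis-specific structural protein gene, stood at 7.22 in the control clone, 4.73 with shTET1#1 and 6.76 in the array labelled shTET1#2. SUSD4 stood at 6.61, 4.71 and 6.43, C8orf34 at 7.05, 5.37 and 6.80, and NKAIN2 at 6.04, 4.77 and 6.34. In these 4 genes shTET1#1, the clone with lower TET1 signal, was the lowest of the 3 shRNA arrays and the other clone was within 0.46 of the control. In NKAIN2 the vector array, at 4.70, was below both clones. MIR3116-1 stood at 5.53, 4.51 and 6.04 in 1 cluster, and its second cluster was higher in both clones, at 5.24, 5.99 and 5.81. PURPL, described above, completed the 6 genes lowest in shTET1#1.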

How the data were processed

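RNA of 8 samples was hybridised to Affymetrix arrays, 1 array per sample, and samples were grouped by their labels. The values deposited by the authors are log2 signals. Affymetrix Expression Console 1.3.1 and RMA are listed in the submitters' processing notes. What each did, and on which genome build, is not given in the sources used here. Of 53981 entries, 364 held no value. Gene symbols came from the platform annotation, which named 16098 clusters, and RefSeq GRCh38.p14 gave gene order and chromosomes.

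Clusters above their own array's median on at least 2 of 8 arrays were kept. All 8 arrays entered 1 fit in limma 3.58.1 (lmFit and eBayes, under R 4.3.3), its terms being the construct (coded ±0.5), the wild-type and mutant plasmids, the vector, the TET1 shRNAs and the control shRNA, leaving 2 residual degrees of freedom. The variance prior had an SD of 0.154 with 2.89 degrees of freedom. Benjamini-Hochberg adjustment was used, and 0.05 was the threshold. No label names separate cultures, so p-values measure the spread between these arrays, which is the difference between the clones and that between the plasmid pairs. The number of arrays limits the precision. The fit was tested on simulated data.

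The agreed difference of a cluster is the smaller in size of its clone differences where both have the same sign. Named genes are TET1, SNAI2 and GFRA3, the 15 highest and 15 lowest agreed differences (1 cluster per symbol), the 6 largest clone differences each way and, in a list with named members, members at least 2-fold from the control in both clones or else up to 4 with the largest mean difference. The chromosome 19 zinc finger set, the neighbouring stretches on chromosomes 19 and X and the reading against both controls were chosen after their values were seen. A gene with several clusters is represented in lists and counts of symbols by the cluster with the highest mean. The members and lists were chosen with earlier results of these data known. Alternatives changed the filter, the normalization, the control, the arrays fitted, the prior and the clusters tested, or left out a clone.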

Additional observations from a re-analysis of the deposited data

How the results depend on the processing

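No paired analysis was possible because the control group has 1 array and shares 1 replicate number with the TET1 shRNA group. The count of clusters passing in limma was 0 under each alternative except 1 transcript cluster per gene symbol, which gave 5 with fewer clusters tested. The clone difference gave 0 under each alternative. The 125 clusters at least 2-fold higher in both clones became 204 with no filter, 75 with a filter on the mean of the shRNA arrays, 197 with the vector as the control, 52 with both controls pooled, 27 with 1 cluster per symbol and 9 when 2-fold from both controls was asked. The 111 lower became 311 with no filter, 300 with the vector, 19 with 1 cluster per symbol and 27 from both controls. Leaving out a clone gave 315 to 324 higher and 262 to 626 lower, the highest without shTET1#1. The 12 zinc finger genes became 2 with the mean filter, 1 with the vector, 0 with pooled controls, 0 from both controls and 12 to 34 with a clone left out, 34 without the array labelled shTET1#2. The cause of these shifts was not tested.

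With the vector as the control, the fitted difference changed sign for ASF1B (0.29), CYTOR 17122506 (-0.59), CYTOR 17122656 (-0.13), CYTOR 17122660 (-0.069), EYA1 (-0.42), FN1 (-1.44), HOXB5 (0.035), HOXB6 (0.13), IDI1 (-0.39), INSIG1 (-0.96), LOC100507412 (-0.27), MIR3116-1 16665437 (0.23), MSMO1 (-0.20), NKAIN2 (0.86), SAT1 (-1.12), SNAI2 (-0.27), SQLE (-0.040), STC1 (-1.77), TAGLN (0.18), TDG (0.68), TET1 16715048 (-0.13), UHRF1 (0.48), ZFP28 (-0.093), ZNF112 (-0.15), ZNF283 (-0.61), ZNF345 (-0.29), ZNF527 (-0.12), ZNF568 (-0.23), ZNF570 (-0.31), ZNF582 (-0.080), ZNF71 (-0.30), ZNF829 (-0.024) and ZNF83 (-0.053). With both controls pooled it changed sign for CYTOR 17122506 (-0.079), FN1 (-0.61), INSIG1 (-0.25), NKAIN2 (0.18), TDG (0.17), TET1 16715048 (-0.052) and UHRF1 (0.032). With each array centred on its median it changed sign for TET1 16715048 (-0.023). With either clone left out the sign depended on the clone for CYTOR 17122506 (-0.28 to 1.16), MIR3116-1 16665437 (-1.02 to 0.51), NKAIN2 (-1.27 to 0.30), TET1 16715048 (-0.44 to 0.49), ULBP1 (-1.45 to 0.084) and ZNF14 (-0.91 to 0.68). Alternatives were run for 95 clusters of genes named in the text, the cell type markers other than VIM left out, and the rest of the 95 kept their sign. Of 27 list medians, 14 moved by more than the spread between the clones with the vector as the control and 11 with arrays centred on their medians. With cyclic loess 7 moved and with the mean filter 1. Without shTET1#1 10 moved, and without the array labelled shTET1#2 5 did. Signal near or below the array median limits the size of the differences in 12 of the 15 highest genes, where the control is below it, and in 5 of the 15 lowest, where at least 1 clone is.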
